A study of Rattus norvegicus with 70 samples.

Results

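The 10 genes described here encode subunits of the transcription factor NF-kappa-B, proteins that hold back or modify its action and 1 related kinase in the rat: Nfkbia, Nfkbie, Nfkbiz, Bcl3, Tnfaip3, Nfkb1, Nfkb2, Rela, Relb and Ikbke. They were chosen by symbol, with earlier results of these data known. All 10 were found in each of the 6 tissue tables, out of 19441 genes per table. Messenger RNA had been sequenced from the lungs of male rats of the inbred Wistar-Kyoto strain and from 5 organs away from the airway: liver, adrenal, hypothalamus, fat and muscle. The rats had breathed air with 0.8 ppm ozone, an oxidant gas, or air alone, in either case for 4 h. The comparison asks how transcripts in these organs differ after ozone. Lung, liver and hypothalamus each had 6 ozone and 6 air libraries. The adrenal groups held 6 ozone and 5 air libraries, the groups from adipose tissue 5 of each, and the muscle groups 5 ozone and 6 air libraries, 68 in all. No group carries a transgene or a drug per the labels, and neither the age of the rats nor the interval between exposure and sampling is stated there. Each library is whole tissue, so fewer cells of a type and less RNA per cell cannot be told apart in any value below.

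NF-kappa-B is a dimer of Rel proteins that rests in the cytoplasm bound to an inhibitor of the I-kappa-B family. Signals from cytokine and pattern receptors lead the I-kappa-B kinase complex to mark the inhibitor for degradation, and the freed dimer enters the nucleus and switches on inflammatory genes. Among the genes it switches on are those of its own inhibitors, a feedback loop that ends the response, and Nfkbia is also a known target of the glucocorticoid receptor. In the lung the pathway is best known in airway epithelium and macrophages, as a response to inhaled irritants and microbes.

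NF-kappa-B acts on its targets through a short DNA motif, the kappa-B site, which is shown here because most members carry it close to their start. RefSeq promoter sequences of build GRCr8, each from 250 bases before to 50 bases after the transcription start, were found for 8 of the 10 genes, all but Relb and Ikbke. At least 1 match to the kappa-B consensus, searched on both strands, was present in 7 of those 8 promoters, all but that of Rela, and in 1142 of 27457 rat promoters of the same length (4.16%). Members such as Nfkbia and Tnfaip3 are standard examples of genes regulated through such sites, so this share largely describes textbook genes. A match in letters does not show binding. The matches are given 5′ to 3′ on the strand of the gene with 10 bases on either side, the match in capitals, with the distance of its first base from the transcription start.
Nfkbia, 31 bases before the start: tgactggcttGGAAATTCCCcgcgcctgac
Nfkbie, 164 bases before the start: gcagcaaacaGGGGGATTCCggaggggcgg
Nfkbiz, 13 bases before the start: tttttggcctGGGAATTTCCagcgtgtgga
Bcl3, 38 bases before the start: tcggcggcagGGGAAGTCCCgcagcccggc
Tnfaip3, 170 bases before the start: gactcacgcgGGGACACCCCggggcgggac
Tnfaip3, 67 bases before the start: tcacgtgactGGAAAGTCCCtcggaaatcc
Tnfaip3, 55 bases before the start: aaagtccctcGGAAATCCCCctgtggcgaa
Nfkb1, base 4 after the start: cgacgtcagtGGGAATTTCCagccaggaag
Nfkb2, 20 bases before the start: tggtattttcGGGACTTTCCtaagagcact

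Tnfaip3 was the member with more than 1 match, and its 67-base and 55-base matches lie next to each other. Read on the strand of the motif, Nfkbia, Nfkbiz and Nfkb1 carry the same 10 letters, GGGAATTTCC. After ozone Nfkbia rose in 4 tissues, Nfkbiz in 3 and Nfkb1 in 0, with 1 fall, as described below. The match of Nfkb2 has the letters of the 67-base match of Tnfaip3 read the same way. The whole promoter of Nfkbia, the gene that rose in the most tissues, is given for context, from the minus strand of chr6:78597023-78597322 of GRCr8, with the same match in capitals.
Nfkbia promoter: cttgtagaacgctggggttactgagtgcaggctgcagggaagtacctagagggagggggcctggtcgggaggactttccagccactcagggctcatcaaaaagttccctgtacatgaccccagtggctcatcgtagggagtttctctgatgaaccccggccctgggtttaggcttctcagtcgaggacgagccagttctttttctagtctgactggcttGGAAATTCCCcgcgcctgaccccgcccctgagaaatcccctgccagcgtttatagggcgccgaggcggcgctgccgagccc

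Values below are the deposited ones, gene counts scaled by a size factor for each library, and are compared within a tissue. Library depth was 8854272 to 18848151 recovered reads. A group of 6 libraries is given by its lowest, median and highest value and a group of 5 by every value. A gene is said to have risen or fallen where limma, run over all genes of that tissue, gave a Benjamini-Hochberg adjusted p under 0.05, and fold changes, or log2 changes, are differences of log2(value + 1), ozone minus air, with their standard error. Whether each library came from its own rat is not stated, so the p-values measure the spread among libraries, which may be technical. On the main axis of variation of their tissue, lung air 2 and air 8, adrenal air 8 and ozone 16, liver air 1, hypothalamus ozone 17 and adipose ozone 22 stood apart from the rest of their groups. Results in those tissues were therefore also taken without them. Muscle air 7 scored 69.1 on that axis, with the other air libraries at 29.1 to 41.9. Muscle ozone 15 scored −25.4, with the other ozone libraries at −62.8 to −49.4. Each was left out only in the refits without 1 library. Without muscle air 7 the calls of Nfkbia and Bcl3 were lost and Nfkbie passed, as given below. Of 59 tests of a member in a tissue, 19 passed, 10 of them up and 9 down.

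**Figure D1:**
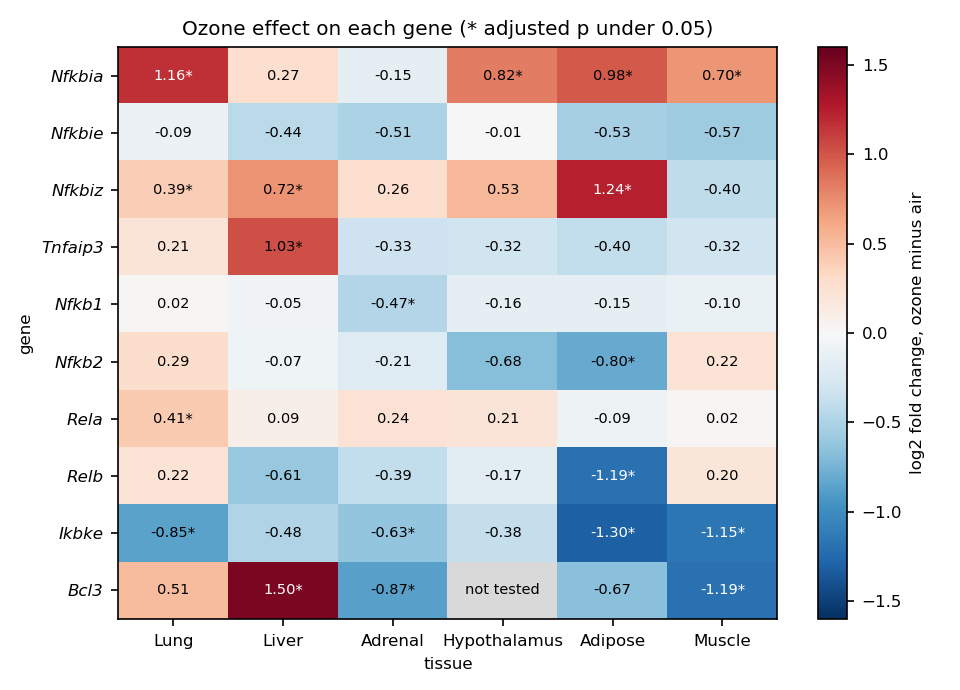
Log2 fold change of each gene (rows) in each tissue (columns), ozone minus air, with an asterisk where limma's adjusted p was under 0.05; grey marks a gene with too low a mean to be tested. Nfkbia was positive in every tissue but adrenal, Ikbke was negative in all 6, and Bcl3 ran from 1.50 in liver to −1.19 in muscle.

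Nfkbia encodes I-kappa-B-alpha, the inhibitor that binds Rela dimers and is itself one of the first targets of the pathway. It rose in lung, hypothalamus, adipose tissue and muscle. Of 11111 genes tested in all 6 tissues, 1.13% rose in 4 or more. In lung it ran at 5663, 6581 and 7476 after ozone against 2150, 3045 and 3241 in air. Every ozone lung lay above every air lung, and the log2 fold change was 1.16 ± 0.11 (limma adjusted p = 8.86e-06).

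Hypothalamus gave Nfkbia values of 497, 715 and 872 after ozone against 336, 377 and 479 in air, again without overlap, a log2 change of 0.82 ± 0.14 (limma adjusted p = 0.00959). It was the only member to pass in hypothalamus, where 1.41% of all genes passed (0.789% up and 0.624% down) and 2.15% did not overlap between groups. In adipose tissue the ozone libraries had 2037, 2953, 4359, 4651 and 5285 and the air libraries 1309, 1799, 1813, 2140 and 2328. The lowest ozone library fell within the air range there and the other 4 lay above it, a log2 change of 0.98 ± 0.25 (limma adjusted p = 0.0347). That call was lost when ozone 16, 19 or 22 or air 2, 5, 6 or 9 was left out, with adjusted p from 0.0556 to 0.0843.

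In muscle Nfkbia had 724, 807, 907, 925 and 1156 after ozone against 333, 594 and 850 in air. The groups overlapped, since the air libraries split into 3 low and 3 high ones, and the log2 fold change was 0.70 ± 0.25 (limma adjusted p = 0.0335). It did not pass without ozone 13, 16 or 23 or air 2, 4 or 7 (adjusted p from 0.0588 to 0.0863), nor in edgeR's quasi-likelihood test on the recovered reads (adjusted p = 0.0546). Liver gave 658, 786 and 967 after ozone against 450, 686 and 758 in air, a log2 difference of 0.27 ± 0.14 that did not pass (limma adjusted p = 0.292). Adrenal gave 1054, 1113 and 1613 after ozone against 1007, 1170, 1232, 1512 and 1996 in air, a difference of −0.15 ± 0.18 (limma adjusted p = 0.617).

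**Figure D2:**
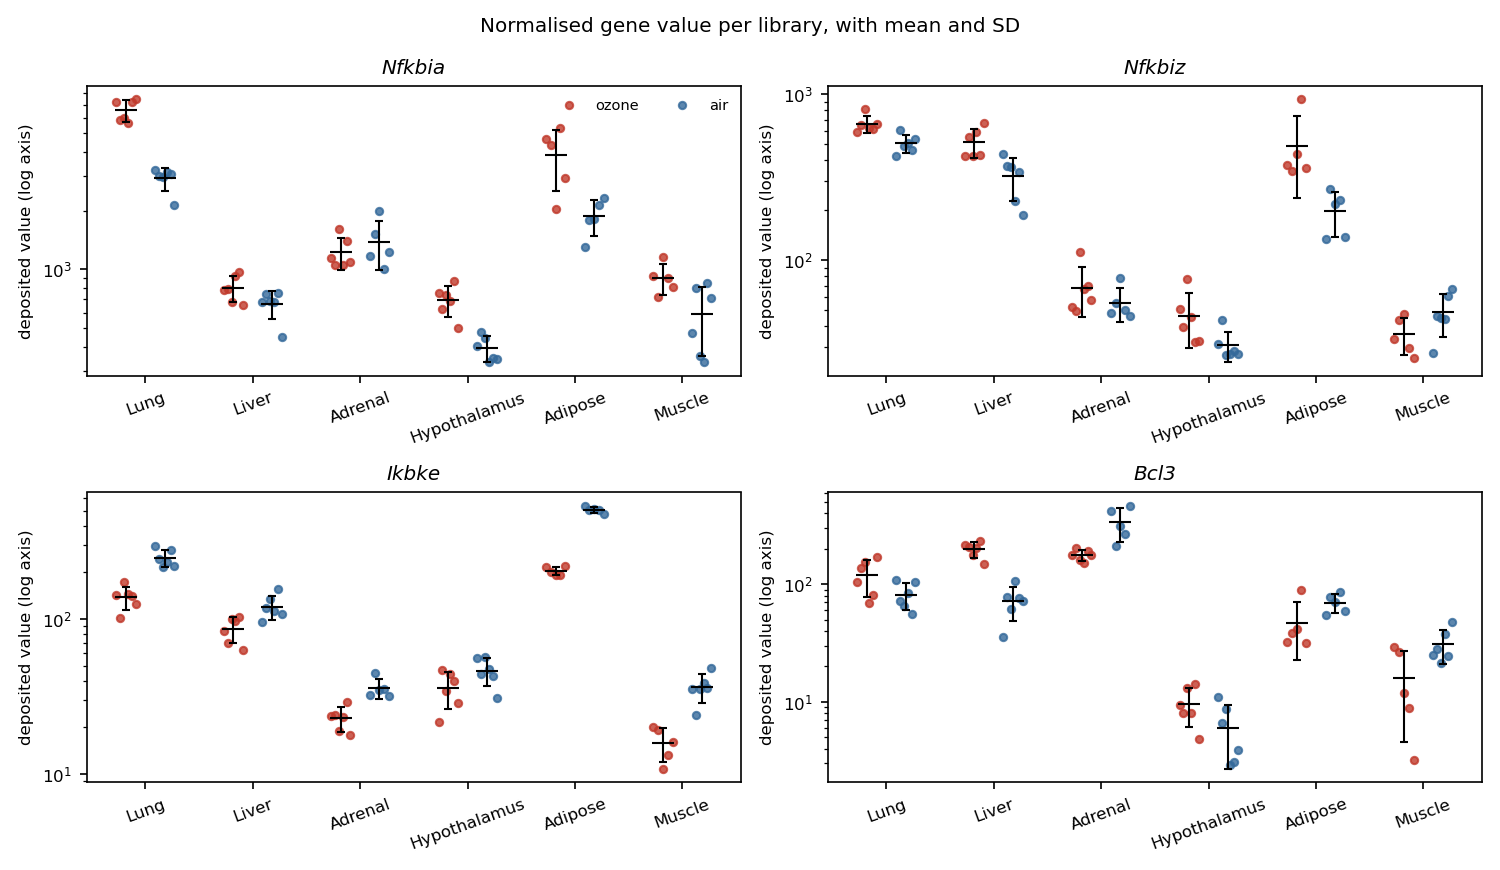
Deposited value of Nfkbia, Nfkbiz, Ikbke and Bcl3 in each library (points) with group mean and SD (bars), ozone left of air in each tissue, on log axes. Ozone lungs hold 5663 to 7476 for Nfkbia, above every air lung, and ozone adipose libraries hold 193 to 219 for Ikbke, below every air library.

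Nfkbiz encodes I-kappa-B-zeta, a nuclear member of the I-kappa-B family that works as a co-activator of selected targets such as Lcn2 and Il6. It rose in lung, liver and adipose tissue. The lung values were 595, 638 and 815 after ozone against 423, 499 and 610 in air, a log2 change of 0.39 ± 0.10 (limma adjusted p = 0.0176). The highest air lung lay within the ozone range, so the groups overlapped. The liver values were 424, 491 and 669 after ozone against 187, 353 and 435 in air, with a larger fold change of 0.72 ± 0.21 (limma adjusted p = 0.036). Without liver ozone 14, 18 or 20 or air 7 or 10 the liver call was lost, with adjusted p from 0.0687 to 0.0844.

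In adipose tissue Nfkbiz reached 343, 358, 375, 435 and 934 after ozone against 134, 138, 217, 229 and 268 in air. All 5 ozone libraries lay above all air libraries, 1 of them, ozone 22, far above the others, and the log2 fold change was 1.24 ± 0.29 (limma adjusted p = 0.0233). It missed the threshold without air 2 or air 12 (adjusted p = 0.0528 and 0.0565). Hypothalamus had 32.2, 42.4 and 77.4 after ozone against 27, 27.8 and 43.5 in air, a difference of 0.53 ± 0.22 that did not pass (limma adjusted p = 0.275). Adrenal gave 0.26 ± 0.22 and muscle −0.40 ± 0.24, neither past the threshold (limma adjusted p = 0.467 and 0.191).

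Bcl3 encodes another nuclear I-kappa-B protein, which binds dimers of the Nfkb1 and Nfkb2 products and can activate or repress their targets. It rose in liver and fell in adrenal and muscle. Liver values were 149, 206 and 232 after ozone against 35.7, 74.6 and 107 in air. The groups did not overlap, and the log2 change of 1.50 ± 0.22 was the largest rise of any member in any tissue (limma adjusted p = 0.000364). Adrenal ran the other way, at 150, 177 and 201 after ozone against 209, 265, 315, 420 and 465 in air. Every ozone adrenal lay below every air adrenal, with a log2 change of −0.87 ± 0.19 (limma adjusted p = 0.008).

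Muscle had little Bcl3, 3.21, 8.83, 11.9, 26.3 and 29 after ozone against 21.5, 26.6 and 47.6 in air, with a log2 change of −1.19 ± 0.44 (limma adjusted p = 0.0418). Ozone 13 and 15, the highest pair, lay within the air range, and the call was lost in 8 of 11 refits without 1 library: without ozone 16, 23 or 24 or air 2, 3, 7, 9 or 11, with adjusted p from 0.0502 to 0.101. It also missed the threshold in edgeR (adjusted p = 0.0791) and DESeq2 (adjusted p = 0.0555) on the recovered reads. In lung the values were 68.6, 121 and 170 after ozone against 55.5, 78 and 109 in air, a difference of 0.51 ± 0.24 (limma adjusted p = 0.156). Adipose tissue had 31.6, 32.5, 38.6, 41.4 and 88.5 after ozone against 55.1, 59.6, 70, 78.4 and 85.2 in air, −0.67 ± 0.28 (limma adjusted p = 0.189). There 4 ozone libraries lay below all air libraries and ozone 22 above them, and without ozone 22 the difference was −0.92 and passed (limma adjusted p = 0.0238). Hypothalamus was under the mean of 10 needed for a test within a tissue, with 4.82, 8.76 and 14 after ozone against 2.9, 5.24 and 11.1 in air.

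Tnfaip3 encodes A20, a ubiquitin-editing enzyme that shuts off signalling from receptor complexes to the I-kappa-B kinases. It rose in liver, at 47.7, 56.5 and 92 after ozone against 15.9, 26.4 and 65.1 in air. Air 6 was the single air liver within the ozone range, and the log2 fold change was 1.03 ± 0.28 (limma adjusted p = 0.0289). The call was lost in edgeR on the recovered reads (adjusted p = 0.0569) and without ozone 13, 14 or 20 or air 2, 7 or 9, with adjusted p from 0.0534 to 0.0691. In the other 5 tissues no change passed, with log2 differences of 0.21 ± 0.22 in lung, −0.33 ± 0.23 in adrenal, −0.32 ± 0.27 in hypothalamus, −0.40 ± 0.26 in adipose tissue and −0.32 ± 0.32 in muscle.

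Nfkbie encodes I-kappa-B-epsilon, a slower cytoplasmic inhibitor of Rela and Rel dimers. Its fold change was negative in all 6 tissues in the limma fit but passed in none, and the value of −0.01 ± 0.16 in hypothalamus turned positive in edgeR (0.03), DESeq2 (0.02) and a fit with array weights (0.07). In 8.27% of the genes tested in all 6 tissues the sign was negative throughout. The lowest adjusted p was in muscle, where the values were 11.8, 17.9, 18.8, 20.2 and 21.6 after ozone against 19.8, 25.7 and 41.1 in air, a difference of −0.57 ± 0.24 (limma adjusted p = 0.0674). That difference passed without air 7 (limma adjusted p = 0.0458) and with array weights (0.0306), and the adrenal difference of −0.51 ± 0.25 passed with array weights (0.0384). Liver had 24.6, 33.6 and 42.1 after ozone against 38.9, 44.4 and 51.5 in air, a difference of −0.44 ± 0.17 (limma adjusted p = 0.134).

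**Figure D3:**
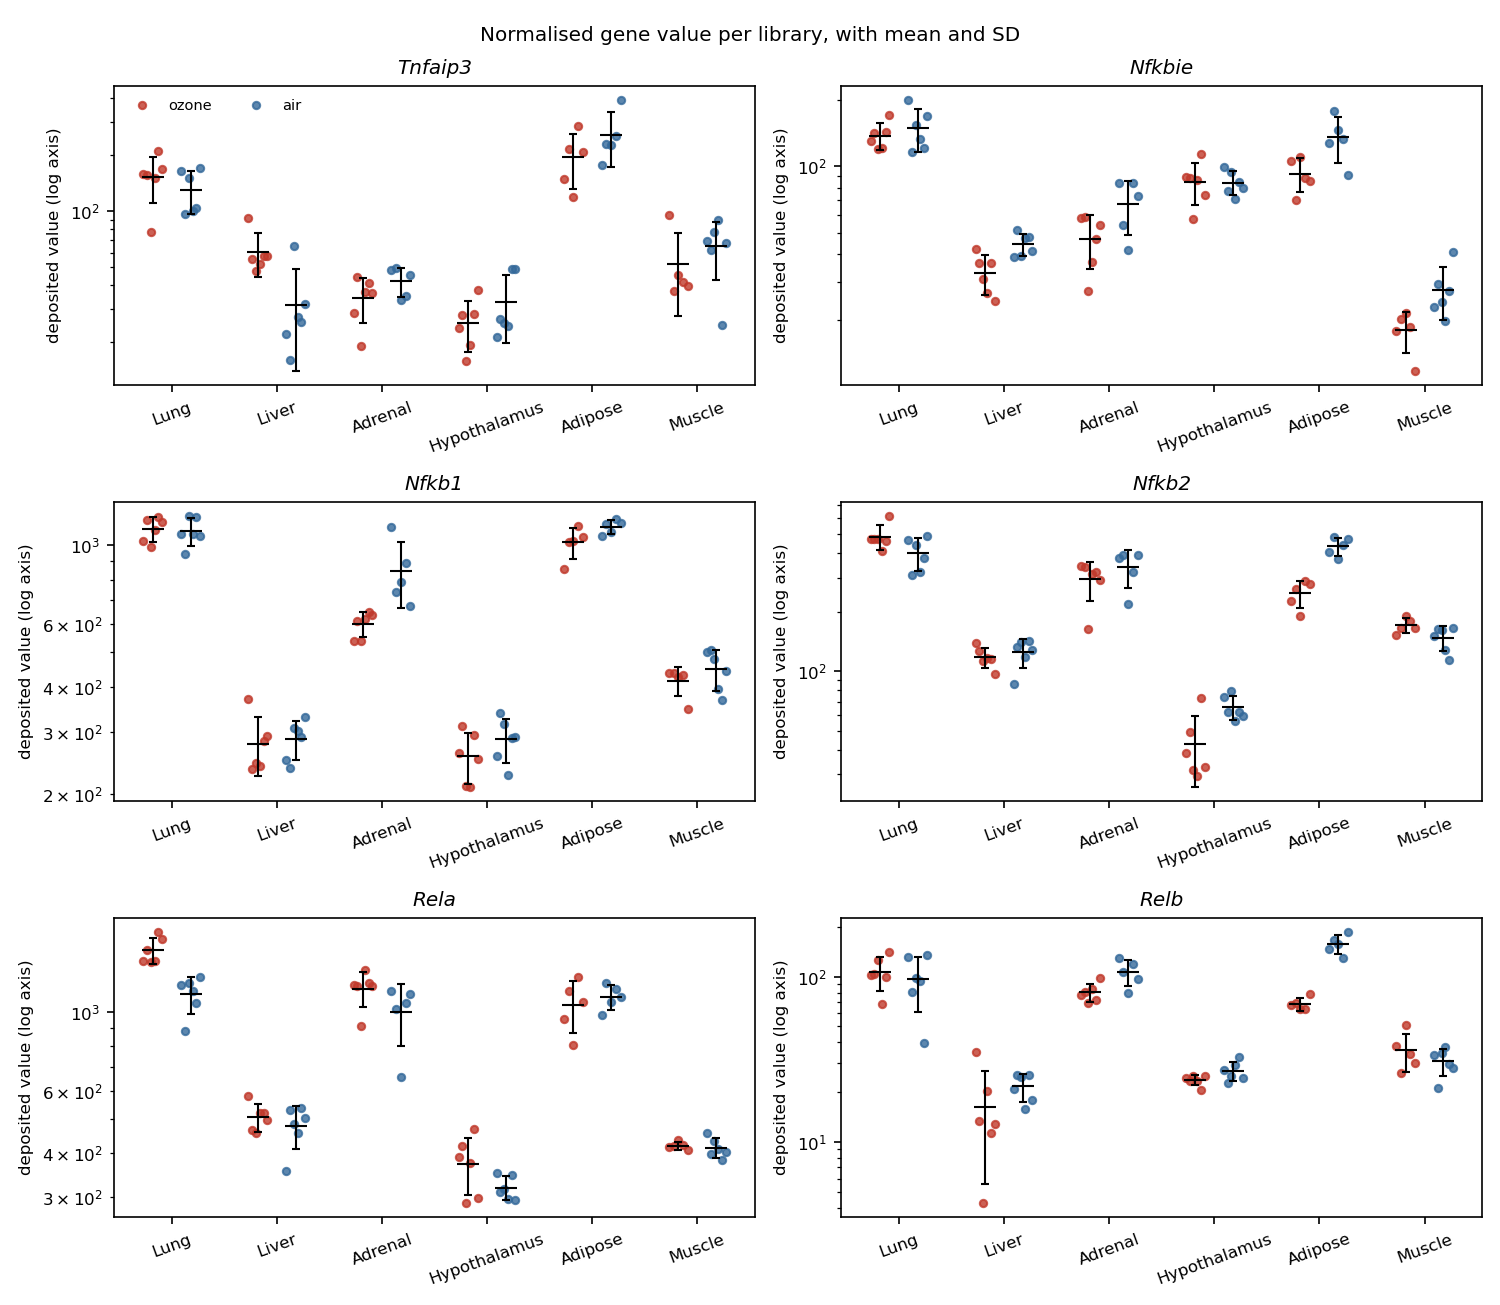
Deposited value of Tnfaip3, Nfkbie, Nfkb1, Nfkb2, Rela and Relb in each library (points) with group mean and SD (bars), ozone left of air in each tissue, on log axes. Nfkb2 and Relb in adipose tissue and Rela in lung show groups that do not overlap, while Nfkb1 differs by at most 0.16 on the log2 scale outside adrenal.

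Rela encodes p65, the subunit that carries the main activation domain of the classical dimer. It rose in lung, at 1387, 1442 and 1685 after ozone against 886, 1168 and 1252 in air. No ozone lung overlapped an air lung, although the log2 fold change was small, 0.41 ± 0.09 (limma adjusted p = 0.00748). In the other tissues the difference lay between −0.09 ± 0.13 in adipose tissue and 0.24 ± 0.16 in adrenal and did not pass. Nfkb1 encodes the p105 precursor of p50, the usual partner of Rela. It fell in adrenal, with 540, 617 and 649 after ozone against 673, 740, 789, 890 and 1125 in air, no overlap and a log2 change of −0.47 ± 0.14 (limma adjusted p = 0.0284). Without adrenal ozone 14 or 17 or air 2 or 9 the adjusted p was 0.0509 to 0.0697. Elsewhere Nfkb1 moved little, from −0.16 ± 0.13 in hypothalamus to 0.02 ± 0.08 in lung.

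Nfkb2, the p100 precursor of p52, and Relb, its partner, form the dimer of the alternative pathway, which is switched on by lymphotoxin and CD40-type receptors through the kinase encoded by Map3k14. Both fell in adipose tissue. Nfkb2 had 191, 227, 262, 279 and 289 after ozone against 375, 403, 438, 471 and 481 in air, a log2 change of −0.80 ± 0.15 (limma adjusted p = 0.00686). Relb had 63.5, 63.7, 67.4, 69.2 and 78.3 after ozone against 130, 147, 157, 167 and 188 in air, a log2 change of −1.19 ± 0.16 (limma adjusted p = 0.00104). Every ozone library lay below every air library for both genes, and the spread of Relb within the ozone group was narrow. Both calls held when any 1 library was left out.

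In hypothalamus Nfkb2 had 29.3, 35.8 and 73.5 after ozone against 56.2, 62.3 and 80 in air, −0.68 ± 0.21, which did not pass (limma adjusted p = 0.155). Ozone 17 was the highest ozone library, and without it the difference was −0.85 and passed (limma adjusted p = 0.0296). In lung Nfkb2 was 0.29 ± 0.13 higher after ozone and did not pass (limma adjusted p = 0.157). Relb in adrenal had 69.4, 79.2 and 98.1 after ozone against 80.1, 97.5, 107, 119 and 131 in air, −0.39 ± 0.16 (limma adjusted p = 0.104). It passed without air 8 (adjusted p = 0.0295), without both air 8 and ozone 16 (0.0338) and with array weights (0.0267). Relb was low in liver, 4.24, 13.1 and 35.2 after ozone against 15.8, 22.9 and 25.6 in air, and the ozone spread exceeded the difference of −0.61 ± 0.37 (limma adjusted p = 0.374).

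Ikbke encodes IKK-epsilon, an inducible kinase related to the I-kappa-B kinases that phosphorylates interferon regulatory factors and Rel proteins. It fell in lung, adrenal, adipose tissue and muscle, and its fold change was negative in all 6 tissues. Of the genes tested in all 6 tissues, 0.765% fell in 4 or more and 0.567% also kept a negative sign in all 6. Adipose tissue had the smallest adjusted p among its tissues, with 193, 194, 201, 218 and 219 after ozone against 475, 503, 503, 510 and 538 in air, a log2 change of −1.30 ± 0.11 (limma adjusted p = 9.27e-05). The 2 groups were each tight and far apart.

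Muscle had 10.8, 13.2, 16, 19.2 and 20.1 for Ikbke after ozone against 24.2, 35.8 and 48.5 in air, −1.15 ± 0.23 (limma adjusted p = 0.00162). Lung had 101, 141 and 174 after ozone against 217, 238 and 297 in air, −0.85 ± 0.13 (limma adjusted p = 0.000423). Neither pair of groups overlapped, and neither call depended on 1 library. Adrenal had 17.8, 23.6 and 29.3 after ozone against 31.9, 32.3, 34.7, 35.3 and 45 in air, −0.63 ± 0.19 (limma adjusted p = 0.0328), also without overlap. That call was lost without ozone 14, 16, 17 or 20 or air 2, 6 or 9, with adjusted p from 0.054 to 0.0874. Liver had 63.1, 90.5 and 102 after ozone against 95.7, 114 and 155 in air, −0.48 ± 0.16 (limma adjusted p = 0.0781), and it passed in DESeq2 (adjusted p = 0.0372), with array weights (0.019) and without air 1 (0.0404). Hypothalamus gave −0.38 ± 0.21 (limma adjusted p = 0.431).

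The members were chosen with earlier results of these data known, so their shares beside those of all genes are a description, not a test. Read by tissue, 4 of the 10 genes passed in lung, 3 up and 1 down. Of all genes 17.7% passed there, 9.51% up and 8.18% down. Groups did not overlap for 3 of them, against 9.54% of all genes. All 4 lung calls held without air 2 and air 8, where 12% of all genes passed, Rela with the highest adjusted p of the 4 (log2 fold change 0.34, limma adjusted p = 0.0286). Liver had 3 members up and 0 down against 11.5% of all genes, 6.74% up and 4.72% down, with 1 not overlapping against 7.62%. Without liver air 1 those 3 passed and Ikbke was added, against 13.8% of all genes. In hypothalamus, without ozone 17, Nfkb2 joined Nfkbia, against 1.12%. Adrenal had 0 up and 3 down against 18.6%, of which 9.23% up and 9.38% down, with 3 not overlapping against 12.9%, and those 3 calls held without air 8 and ozone 16, Ikbke with the highest adjusted p (−0.59, limma adjusted p = 0.048). Without both libraries 4 members passed, Relb being added, and 30.2% of all genes. Adipose tissue had 2 up and 3 down against 7.32%, of which 3.87% up and 3.45% down, with 4 not overlapping against 8.81%. Without adipose ozone 22 there were again 5, Bcl3 in place of Nfkbia, against 8.62%. Muscle had 1 up and 2 down, a smaller share than the 43.7% of all genes that passed there, 21.6% up and 22.1% down, and 1 not overlapping against 24.3%. The median log2 fold change of the members tested was 0.25 in lung, 0.02 in liver, −0.36 in adrenal, −0.16 in hypothalamus, −0.46 in adipose tissue and −0.21 in muscle, where that of all genes tested lay between −0.00355 and 0.02.

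Markers of other cells passed the threshold in some of these tissues. In lung 9.51% of all genes rose and 8.18% fell, and in muscle 21.6% rose and 22.1% fell. In lung 5 of 11 T and NK lymphocyte markers fell, with summed values of 783 to 1447 after ozone and 1536 to 2180 in air. B lymphocyte markers also fell in lung, 6 of 10, with sums of 1784 to 3087 after ozone and 3241 to 6860 in air. Of 10 macrophage and monocyte markers 4 rose and 2 fell there, with sums of 175172 to 224608 after ozone and 122940 to 192912 in air. Of 7 neutrophil markers 1 rose and 4 fell, yet their sums were higher after ozone, 3919 to 5753 against 2613 to 3585 in air. Of 8 endothelial markers 1 rose and 2 fell, and of 7 lung-defining markers 3 rose and 1 fell. The 1 hypothalamus-defining marker tested in lung rose (log2 fold change 2.31), with low sums of 21.6 to 60.7 after ozone and 9.25 to 20.1 in air. In muscle all 5 muscle-defining markers tested rose, with sums of 2994598 to 5079268 after ozone and 1221586 to 2076306 in air, and 6 of 7 fibroblast markers fell, with sums of 19790 to 81332 after ozone and 75270 to 248664 in air. Of 8 endothelial markers in muscle 4 fell and 1 rose, with sums of 4843 to 6419 after ozone and 6019 to 8587 in air. There 2 of 9 macrophage markers fell (Csf1r and Adgre1), near the 22.1% of all genes, as did the 1 B lymphocyte marker tested. Of 2 lung-defining markers tested in muscle 1 rose, with sums of 192 to 409 after ozone and 98.2 to 218 in air. The 10 most abundant genes of each muscle library took 27.5% to 34.4% of its reads after ozone and 20.0% to 25.1% in air, without overlap.

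In adrenal 9.23% of all genes rose and 9.38% fell. There 2 of 6 lung-defining markers rose, with sums of 328 to 4191 after ozone and 76.7 to 1105 in air. Of 7 adipose-defining markers there 2 rose (Lep and Cidec), with sums of 4825 to 14748 after ozone and 3984 to 8544 in air, and 1 of 8 adrenal-defining (Th) and 1 of 8 endothelial markers (Kdr) rose. Adipose libraries held muscle transcripts, with muscle-marker sums of 816 to 31462 after ozone and 2459 to 214611 in air. Markers of other organs varied widely elsewhere too. Liver-marker sums were 295 to 8512 in ozone and 636 to 23199 in air adrenals. In hypothalamus they were 97.1 to 20474 after ozone and 399 to 13741 in air. Lung-marker sums in liver were 42.4 to 4839 after ozone and 32.7 to 9065 in air. Of all genes in adipose tissue 3.87% rose and 3.45% fell. There 1 of 3 neutrophil markers fell (Csf3r, log2 fold change −1.02, limma adjusted p = 0.0282), as did 1 of 3 adrenal-defining markers (Star). Of 8 endothelial markers 1 rose (Kdr), as did 1 of 7 adipose-defining markers (Cidec). None of the 8 T and NK, 2 B, 10 macrophage or 7 fibroblast markers tested passed there. In liver, where 6.74% of all genes rose, 1 of 4 adipose-defining markers rose and no other marker passed. In hypothalamus no marker of any list passed. The part of these shifts in the results for the members was not tested.

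The size of the ozone effect differed between tissues for 7 of the 10 genes in the limma F test for interaction of tissue and exposure, which 34.1% of all genes passed. Bcl3 had the lowest adjusted p (2.67e-06), followed by Nfkb2 (0.000276), Nfkbia (0.000764), Nfkbiz (0.0021), Ikbke (0.00487), Relb (0.00618) and Tnfaip3 (0.0128). The Bcl3 values in hypothalamus, too low to be tested alone, are part of the joint fit behind its F test and contrasts. Nfkb1, Rela and Nfkbie did not pass (limma adjusted p = 0.139, 0.12 and 0.266). Each tissue was then set against the mean effect of the other 5. Bcl3 was 1.81 ± 0.34 higher on the log2 scale in liver than in the other tissues (limma adjusted p = 9.26e-05), and Tnfaip3 was 1.26 ± 0.30 higher there (0.00336), where 6.58% of genes passed.

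**Figure D4:**
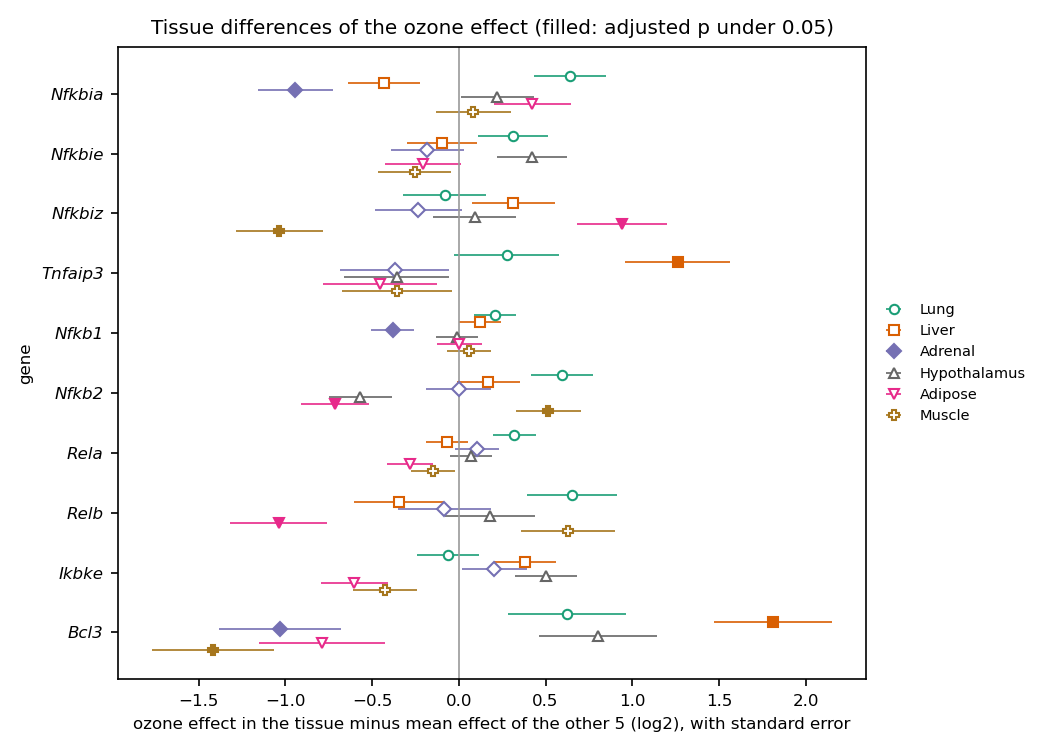
Ozone effect of each gene in each tissue minus its mean effect in the other 5, on the log2 scale with the standard error; filled symbols have an adjusted p under 0.05 in the joint limma fit. Liver stands to the right for Bcl3 and Tnfaip3, adrenal to the left for Nfkbia, and adipose tissue to the left for Nfkb2 and Relb and to the right for Nfkbiz.

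In adrenal the effect on Nfkbia was 0.94 ± 0.22 lower than in the other tissues (a contrast of −0.94, limma adjusted p = 0.00109), that on Nfkb1 was −0.38 ± 0.13 (0.0296) and that on Bcl3 −1.03 ± 0.35 (0.0361), against 14.5% of genes. The adrenal contrast of Bcl3 was lost with 1 variance weight per tissue (adjusted p = 0.0647). Adipose tissue differed for Nfkbiz (0.94 ± 0.26, limma adjusted p = 0.0236), Nfkb2 (−0.71 ± 0.19, 0.0221) and Relb (−1.04 ± 0.28, 0.0195), against 3.47% of genes. Muscle differed for Nfkbiz (−1.03 ± 0.25, limma adjusted p = 0.00118), Bcl3 (−1.41 ± 0.35, 0.00155) and Nfkb2 (0.52 ± 0.19, 0.0318), against 28.3%. Lung and hypothalamus had no member past the threshold by limma, against 3.27% and 1.41% of genes. The nearest in lung were Nfkb2 (adjusted p = 0.051) and Nfkbia (0.0759), which passed with a pseudocount of 10 and with 1 variance weight per tissue. The drop of Ikbke in adipose tissue was not shown to exceed that elsewhere (limma adjusted p = 0.0648), except with a pseudocount of 10 (0.00253).

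Levels across tissues were set on RPM, the reads of a gene per 1000000 recovered reads of the library, since each tissue had been normalised on its own. The 10 most abundant genes took a median of 7.14% of reads in lung, 23.9% in liver and 25.1% in muscle. Their share in muscle was higher after ozone than in air, as given above. Ozone and air RPM can thus differ where the deposited values do not. In muscle Rela had 22.3 RPM after ozone and 27.6 in air, with a log2 fold change of 0.02 on the deposited values. Nfkbia was highest in lung, at 518 ± 73.4 RPM after ozone (SD, n = 6) and 242 ± 32.5 in air (SD, n = 6). Adipose tissue followed at 233 ± 83.4 after ozone and 126 ± 28.1 in air, and adrenal at 105 ± 14.4 after ozone and 130 ± 29.1 in air. The 3 lowest, hypothalamus, liver and muscle, overlapped each other, at 58.3 ± 12.5, 54.1 ± 9.62 and 47.8 ± 7.08 after ozone and 33.4 ± 5.2, 46.4 ± 7.45 and 38.8 ± 14.2 in air. Lung thus held more Nfkbia than any other tissue in both groups, while adipose tissue and adrenal overlapped in air and not after ozone.

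Ikbke was highest in adipose tissue, at 12.4 ± 0.387 RPM after ozone and 33.8 ± 1.39 in air, followed by lung at 10.8 ± 1.81 after ozone and 20.5 ± 2.65 in air. Those tissues overlapped after ozone and did not overlap in air. Liver followed with 5.8 ± 1.17 after ozone and 8.36 ± 1.37 in air, and the lowest level was in muscle, 0.851 ± 0.242 after ozone and 2.45 ± 0.613 in air. Bcl3 was highest in adrenal, 15.2 ± 1.98 after ozone and 31.7 ± 10.3 in air. Liver held 13.3 ± 2.41 after ozone, overlapping adrenal and lung, and 4.97 ± 1.54 in air, below every air adrenal.

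The other members had lung at or near the top. Nfkbiz had 52 ± 4.96 RPM in lung after ozone and 41.8 ± 5.1 in air, 34.6 ± 6.5 and 22.4 ± 7.11 in ozone and air livers, and 1.93 ± 0.547 and 3.24 ± 0.977 in ozone and air muscle. Nfkb1 ran from 18.8 ± 4.22 in ozone livers to 87.4 ± 7.61 in ozone lungs and from 19.9 ± 2.8 in air livers to 90.4 ± 8.46 in air lungs. Rela ran from 22.3 ± 1.44 in ozone muscle to 118 ± 11.1 in ozone lungs, and air lungs (93 ± 12.8) and air adrenals (96 ± 23.1) overlapped at the top. Nfkb2 reached 38.1 ± 5.73 in ozone lungs, with 15.1 ± 2.49 in ozone and 29 ± 3.57 in air adipose tissue. Relb in adipose tissue was at 4.13 ± 0.225 after ozone, below all ozone lungs (8.45 ± 1.91) and adrenals (6.97 ± 1.11). In air adipose tissue (10.5 ± 1.41), adrenal (10.2 ± 2.28) and lung (8.04 ± 3.07) overlapped. Tnfaip3 was highest in lung (12.1 ± 3.52 after ozone, 10.8 ± 3.04 in air) and adipose tissue (11.8 ± 4.17 after ozone, 17.1 ± 5.52 in air), which overlapped. Nfkbie was highest in lung, 10.8 ± 1.56 after ozone and 12.3 ± 2.94 in air, and lowest in muscle, 0.965 ± 0.228 after ozone and 1.83 ± 0.51 in air.

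The rest of the pathway was described from 7 lists of 113 genes, of which 109 were in the tables. These lists too were chosen with earlier results of these data known, so their shares are a description. In lung 25 of 104 tested rose and 11 fell (24.0% and 10.6%), against 9.51% and 8.18% of all genes. Liver had 10 risen and 5 fallen of 87 (11.5% and 5.75%, against 6.74% and 4.72%), and adrenal 14 and 13 of 89 (15.7% and 14.6%, against 9.23% and 9.38%). Hypothalamus had 2 and 2 of 88 (2.27% each, against 0.789% and 0.624%). Adipose tissue had 9 risen and 4 fallen of 97 (9.28% and 4.12%, against 3.87% and 3.45%), and muscle 16 and 31 of 86 (18.6% and 36.0%, against 21.6% and 22.1%). Among ligands, Il33, an alarmin of the interleukin-1 family released by damaged epithelium, fell in lung to 1609 ± 155 after ozone against 4796 ± 444 in air (SD, n = 6 each; log2 fold change −1.58 ± 0.09). It also fell in liver (−1.07 ± 0.15) and muscle (−2.13 ± 0.33), but in adrenal it rose, to 9879 ± 828 after ozone against 2026 ± 378 in air (2.30 ± 0.14, limma adjusted p = 1.57e-06). Il1a, the interleukin-1-alpha gene, rose in lung (1.38 ± 0.24). Among receptors, Tnfrsf12a, which binds the ligand TWEAK, rose in lung (1.47 ± 0.25), and Tnfrsf11a, the receptor RANK, rose in hypothalamus to 255 ± 24.7 after ozone against 80 ± 15.4 in air (1.68 ± 0.14, limma adjusted p = 2.52e-05). Tlr3, a sensor of double-stranded RNA, fell in adrenal (−1.66 ± 0.17). Tlr2, of the same family, fell in adipose tissue (−1.03 ± 0.24), hypothalamus (−0.93 ± 0.20) and lung (−0.54 ± 0.14). In muscle 6 of 12 receptors tested fell, against 22.1% of all genes. Among them were Tlr4, the sensor of endotoxin (−2.05 ± 0.32), and Il1r1, the interleukin-1 receptor (−1.27 ± 0.22).

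Irak2, an adaptor kinase of interleukin-1 and Toll-like receptors, rose in 5 tissues, where 1.13% of the genes tested in all 6 rose in 4 or more. Its log2 fold change was 0.68 ± 0.14 in lung, 0.79 ± 0.15 in adrenal, 0.71 ± 0.11 in hypothalamus, 1.58 ± 0.22 in adipose tissue and 2.21 ± 0.22 in muscle (limma adjusted p from 1.5e-05 to 0.00386). Myd88, the adaptor of the same receptors, rose in lung (0.52 ± 0.09), where the kinase gene Map3k8 (0.91 ± 0.12) and Ikbkb, a catalytic I-kappa-B kinase (0.36 ± 0.10), rose too. Ikbkb also rose in muscle (0.78 ± 0.13). Traf1, an adaptor that is itself a target of the pathway, fell in adrenal (−1.31 ± 0.31). Map3k14, the kinase of the alternative pathway, rose in adrenal (0.80 ± 0.20) and fell in liver (−0.66 ± 0.20) and muscle (−0.80 ± 0.19).

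Of the other brakes, 6 of 20 rose and 4 fell in lung, against 9.51% and 8.18% of all genes, and 7 of 18 rose with 0 fallen in liver, against 6.74% and 4.72%. In liver those included Otulin, a deubiquitinase of linear chains (1.36 ± 0.25), Il1rn, the interleukin-1 receptor antagonist (1.11 ± 0.22), and Tax1bp1, a partner of A20 (0.56 ± 0.12). Tax1bp1 also rose in adipose tissue (0.88 ± 0.17). Tsc22d3, the glucocorticoid-induced leucine zipper, rose in lung to 13730 ± 1106 after ozone against 6514 ± 3094 in air (1.21 ± 0.25) and in adipose tissue (1.25 ± 0.22), and Zfp36, which destabilises cytokine messages, rose in lung (0.98 ± 0.13) and muscle (1.47 ± 0.19). Nfkbib, another cytoplasmic I-kappa-B gene, rose in adrenal (1.58 ± 0.31) and muscle (1.18 ± 0.28).

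**Figure D5:**
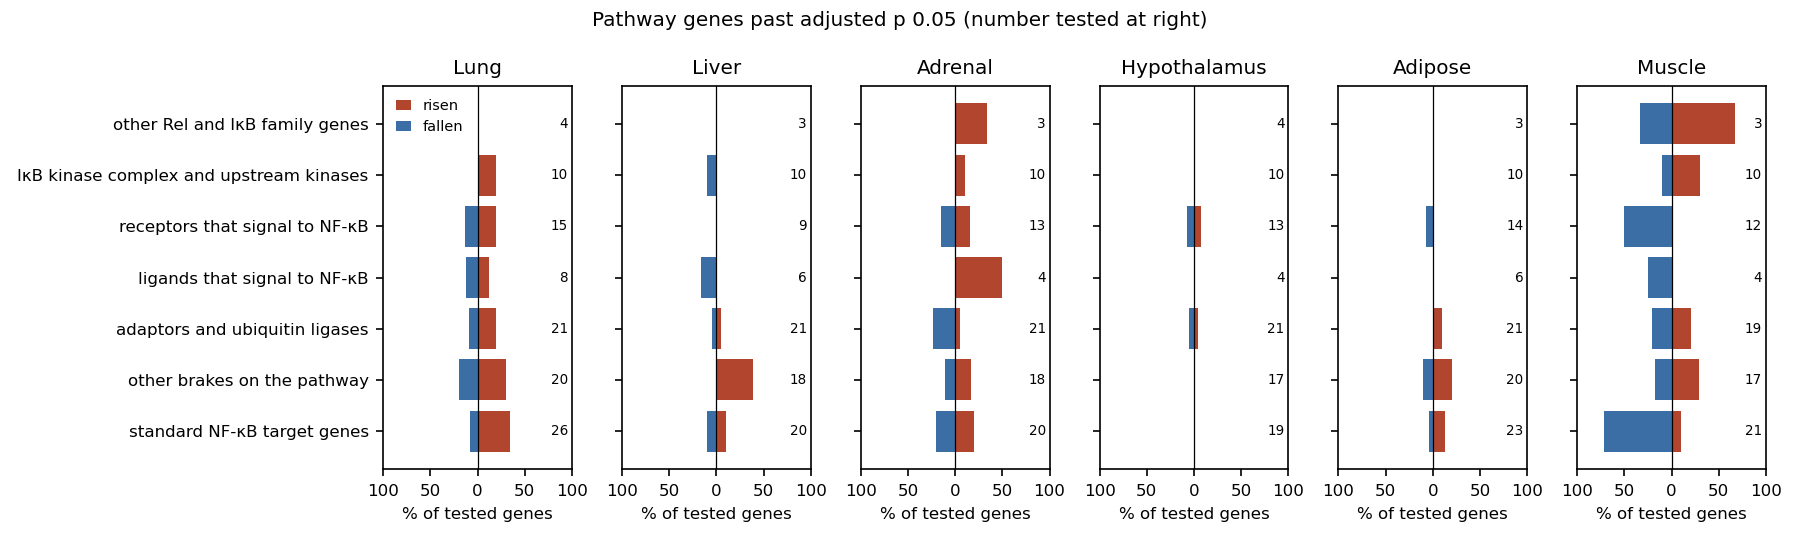
Share of the tested genes of each pathway list that rose (right of 0) or fell (left of 0) after ozone in each tissue, in percent, with the number tested at the right. The brakes in liver show rises only, 7 of 18, and the target genes in muscle mostly falls, 15 of 21.

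The standard target genes of NF-kappa-B were mixed. In lung 9 of 26 rose and 2 fell, against 9.51% and 8.18% of all genes, with a median log2 fold change of 0.33, led by Bcl2l1, which restrains cell death (1.41 ± 0.11), F3, tissue factor (1.32 ± 0.17), and Ier3, an early response gene (1.19 ± 0.17). In muscle 2 of 21 rose and 15 fell, against 21.6% and 22.1%, with a median of −0.91, among them F3 (−1.54 ± 0.22), Ier3 (−1.93 ± 0.36) and the adhesion molecule Icam1 (−1.56 ± 0.28), beside the falls of fibroblast and endothelial markers given above. In adrenal 4 of 20 rose and 4 fell, against 9.23% and 9.38% of all genes. Liver had 2 and 2 of 20, against 6.74% and 4.72% of all genes, and adipose tissue 3 and 1 of 23, against 3.87% and 3.45%. Bcl2l1 was among the genes that rose in adipose tissue (1.25 ± 0.23). No target gene passed in hypothalamus, of 19 tested by limma. Irf1, an interferon-linked transcription factor, fell in liver (−0.73 ± 0.19), adrenal (−1.04 ± 0.14) and adipose tissue (−0.66 ± 0.17).

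Likeness between genes was measured as Pearson's r of the deviations of each library from its own tissue and exposure mean, over 68 libraries and the genes with a mean of at least 50 in all 6 tables. These points share library depth and the authors' scaling. For Nfkbia the 5 highest were Fbxo6 (0.66), Akt1s1 (0.66), Eif2b2 (0.66), Psme1-ps1 (0.65) and Rps21-ps1 (0.64), the last a pair of pseudogenes whose reads may belong to near-identical copies. For Tnfaip3 they were Kdm4a (0.67), Ick (0.64), Pacs2 (0.64), Cnst (0.64) and Nrde2 (0.64).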

How the data were processed

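The authors deposited 1 table of normalised signal per tissue, each with 19465 entries, and 24 entries whose symbols had turned into dates were dropped. All values of a library were multiples of a common step, so the deposited values are counts scaled by a size factor, and dividing by the step gave whole reads for 100% of values within a tolerance of 0.01. Partek, DESeq2 and the rn6 build are named, without versions or roles, per the submitters' processing notes. Aligner, counting, strand setting and annotation were not given in the sources used here; genes that share reads with copies or overlap an antisense gene are uncertain. Per the labels' protocols, RNA was extracted with Qiagen kits (lung, liver, muscle, adipose tissue) or a Zymo kit (hypothalamus, adrenal), selected for mRNA and sequenced on a NextSeq 500. Of 70 libraries in the labels 68 had a column; air 7 of adrenal and ozone 17 of muscle were not used here.

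The main test was limma 3.58.1 (R 4.3.3) on log2(value + 1), two-sided, with trend and robust moderation, for the genes of each tissue whose mean reached 10, with Benjamini-Hochberg adjustment over all genes tested and a threshold of 0.05. A fold change on this scale understates the change of low genes. A joint fit of all 12 tissue and exposure groups gave the F test and the contrasts between tissues, with the spread pooled over tissues. It took genes whose mean reached 10 in any tissue, so values of a gene in a tissue under that mean were included. Alternatives were other pseudocounts (0.5 and 10), no filter or a mean of at least 50, TMM factors and quasi-likelihood tests from edgeR 4.0.16, DESeq2 1.42.0, array weights, leaving out each library and, chosen after seeing the data, leaving out 2 libraries together in lung and in adrenal. The fits were tested on simulated data. Over 160 pairs of libraries of a group, chi-square divided by its degrees of freedom was at least 9.32, and none was taken as a repeat deposit.

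The members and lists were chosen with earlier results of these data known, and the pathway lists and cell type markers come from general knowledge. All members are named. Of each pathway list, up to 3 genes per tissue with the lowest adjusted p could be named, if past the threshold and with a mean of 50 or more. Promoters come from RefSeq, build GRCr8, which is not the build of the tables, and serve only as sequence.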

Additional observations from a re-analysis of the deposited data

Results flagged for a closer look

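In 17 of 120 groups of a member in a tissue and exposure, 1 library lay farther from the rest than Dixon's test at 95% allows, where chance gives about 1 in 20. Adrenal ozone 16 gave 3 of these, with 112 for Nfkbiz (the other ozone adrenals at 49.3 to 70.3), 165 for Nfkb2 (291 to 345) and 911 for Rela (1184 to 1313). Adrenal air 8 gave 77.7 for Nfkbiz (46.2 to 55.1) and 654 for Rela (1023 to 1143), and both libraries stood apart over all genes. Adrenal air 6 was high for Ikbke at 45.0 (31.9 to 35.3).

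Adipose ozone 22 was high for Nfkbiz at 934 (the other ozone libraries at 343 to 435) and for Bcl3 at 88.5 (31.6 to 41.4). Air 10 was low for Nfkbia in lung at 2150 (2964 to 3241) and in liver at 450 (676 to 758). Lung ozone 15 was high for Nfkbiz at 815 (595 to 663) and lung ozone 20 for Nfkb2 at 621 (410 to 473). In liver Tnfaip3 was high in ozone 13 at 92.0 (47.7 to 57.7) and in air 6 at 65.1 (15.9 to 32.0). Muscle ozone 13 was high for Tnfaip3 at 94.9 (37.4 to 45.4) and muscle ozone 24 low for Nfkb1 at 347 (426 to 439). Hypothalamus air 2 was high for Nfkbiz at 43.5 (27.0 to 31.2).

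The ozone effect differed between tissues for 7 members in the joint limma F test, with adjusted p of 0.000764 for Nfkbia, 0.0021 for Nfkbiz, 0.0128 for Tnfaip3, 0.000276 for Nfkb2, 0.00618 for Relb, 0.00487 for Ikbke and 2.67e-06 for Bcl3.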

How the results depend on the processing

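Of the 19 calls, all kept their direction in every alternative, and in settings other than leaving out 1 library 151 values kept their side of the threshold and 4 lost it, those of Tnfaip3 in liver and of Nfkbia and Bcl3 in muscle named above. In refits without 1 library 167 kept it and 45 lost it. Members past the threshold, without 1 library, numbered 4 in each lung refit, 1 to 4 in liver and in adrenal alike, 1 to 2 in hypothalamus, 1 to 3 in muscle and 3 to 5 in adipose tissue, and genes overall ran from 105 to 286 for hypothalamus and from 609 to 1224 for adipose tissue. Array weights gave 3941 genes in lung, 2302 in liver, 4822 in adrenal and 723 in hypothalamus, with 5 adrenal members. DESeq2 gave 551 genes in hypothalamus and 1616 in adipose tissue. Without adrenal air 8 and ozone 16 there were 4220, against 2609 with all libraries. Muscle had 1 member past the threshold in edgeR. With only genes of a mean of at least 50 tested it also had 1, as Ikbke and Bcl3 were too low there to be tested. Against the other 5 tissues, a pseudocount of 10 gave 1125 genes in lung with 2 members, 470 in hypothalamus and 963 in adipose tissue, and 1 variance weight per tissue gave 1127 in lung with 2 members. Small differences that never passed changed sign: Nfkb1 in lung (−0.036 without air 2 and air 8, −0.020 to 0.055 without 1 library), Relb in lung (−0.012 to 0.34 without 1 library), Rela in adipose tissue (−0.16 to 0.0028 without 1 library) and Nfkbie in hypothalamus (0.029 in edgeR, 0.025 in DESeq2, 0.072 with array weights, −0.093 to 0.099 without 1 library), and, against the other 5, Nfkb2 in adrenal (−0.000282 with the replicate block, −0.017 with a pseudocount of 10) and Nfkbiz in hypothalamus (−0.00228 with a pseudocount of 10). The cause of these shifts was not tested.

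No paired analysis was possible because ozone and air libraries share no number within a tissue. Across tissues, the library number as a random replicate block in the joint fit left 5924 genes and 7 members past the F test and had a consensus correlation of 0.00144. Deviations of equal numbers in different tissues had a median r of 0.027 over 90 pairs, against 0.006 over 872 pairs of different numbers, so the numbers were not shown to pair libraries. Bcl3 in hypothalamus was under the mean of 10 and was the 1 combination of member and tissue not tested within its tissue. Its low values entered the joint fit, where the contrast for hypothalamus did not pass (0.80 ± 0.34, limma adjusted p = 0.294).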
